A study of Bos indicus with 11 samples.

Results

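The WNT signalling genes of the bovine endometrium were compared between pregnant and non-pregnant cows. Members were taken by gene symbol from the table of normalised read counts: WNT ligands, frizzled receptors (FZD), the co-receptors LRP5 and LRP6, R-spondins (RSPO) and their receptors LGR4, LGR5 and LGR6, secreted frizzled-related proteins (SFRP), WIF1, Dickkopf proteins (DKK), and AXIN2, LEF1 and TCF7. Of the 24616 genes in the table, 47 were members, and 38 of them had a mean of at least 5 normalised counts over the 11 cows and were tested among 15081 genes. The rule uses symbols and this minimum only, although it was set with earlier results of these data known.

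RNA-Seq was performed on endometrial biopsies from healthy, multiparous Nelore beef cows, 1 library per cow, taken on day 6 after artificial insemination (AI) at detected oestrus following synchronisation. The biopsy came from the uterine horn on the side without the corpus luteum. Cows were grouped afterwards by the diagnosis on day 30 as pregnant (P, n = 6) or non-pregnant (NP, n = 5), so all 11 cows had been inseminated and none had been diagnosed when sampled. Whether an NP cow had carried an embryo on day 6 is not given by the labels, and a biopsy mixes all cell types of the uterine wall it reaches.

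WNT proteins are secreted lipid-modified signals that bind a frizzled receptor together with LRP5 or LRP6, which stabilises β-catenin and lets it act with LEF1 and TCF7 on target genes such as AXIN2. R-spondins strengthen the signal through LGR receptors, whereas SFRP and WIF1 bind the ligands and Dickkopf proteins such as DKK1 block the co-receptors. In the uterus, WNT signalling is known for its part in the growth of glands, in the dialogue between stroma and epithelium and in the layering of muscle.

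Library depth lay between 9290949 and 13569085 reads on genes per cow, and a normalised count is a read count divided by the cow's size factor, so that 1 read is worth close to 1. Cows P617 and P1541 stood apart. The first principal component, with 46.6% of the variance, placed them at 166 and 59.1 against -43.3 to 8.58 for the other cows. The summed normalised count of 7 smooth muscle markers (DES, MYH11, CNN1, TAGLN, SMTN, LMOD1 and SYNPO2) ranged from 50274 to 424700 in P cows and from 24992 to 175261 in NP cows, highest in P617, P1541 and NP638. The summed epithelial markers were lowest in P617, at 2887 against 14937 to 20824 in the NP cows, and the paper's supplement names the record of P617 as non-pregnant although its label reads pregnant. Markers of epithelium, stromal fibroblasts, smooth muscle, endothelium and immune cells were read in every cow, and the sum of 11 endothelial markers was 4664 to 14344 in P cows and 8921 to 15623 in NP cows. Results are therefore given for all cows and, where the value moves, without these cows or with a marker mean as covariate. This marker mean is the mean of log2(normalised count + 1) over the markers of a list. It gives each marker equal weight and is not the summed count. In such bulk tissue, fewer cells of a type and less RNA per cell cannot be told apart.

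Several ligands, SFRP1, DKK3 and the receptor FZD4 had higher values in the endometrium of NP cows, while RSPO1 and FZD3 had higher values in P cows. An unadjusted p under 0.05 was found for 9 of the 38 members, which is 23.7%, against 7.84% of all genes tested. Of these, WNT2, WNT5B, WNT6, WNT16, FZD4, SFRP1 and DKK3 were higher in NP (7 members, 18.4%, against 5.49% of all genes) and RSPO1 and FZD3 were higher in P (2 members, 5.26%, against 2.35%). No member passed the adjusted threshold of 0.1 in limma (0 of 38, and 0% of all genes), a linear model on the log2(normalised count + 1) scale with the Benjamini-Hochberg adjustment over all genes. On the reads recovered from the table, edgeR also called 0 members (7 at an unadjusted p under 0.05, or 18.4%, against 7.63% of all genes), and DESeq2 called 2, FZD4 and SFRP1 (5.26%), against 1.33% of all genes. All fold changes below are NP over P on the log2(normalised count + 1) scale from limma, unless another tool is named. The added 1 pulls the change of low genes towards 0, but the limma values were not always the smaller ones. WNT2, WNT5B, WNT6 and WNT16 had 2.34, 2.58, 1.91 and 2.31 in limma, against 1.77, 1.41, 1.22 and 1.76 in edgeR. Of the 9 members, only RSPO1 was further from 0 in edgeR (-1.40 against -1.36).

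**Figure D1:**
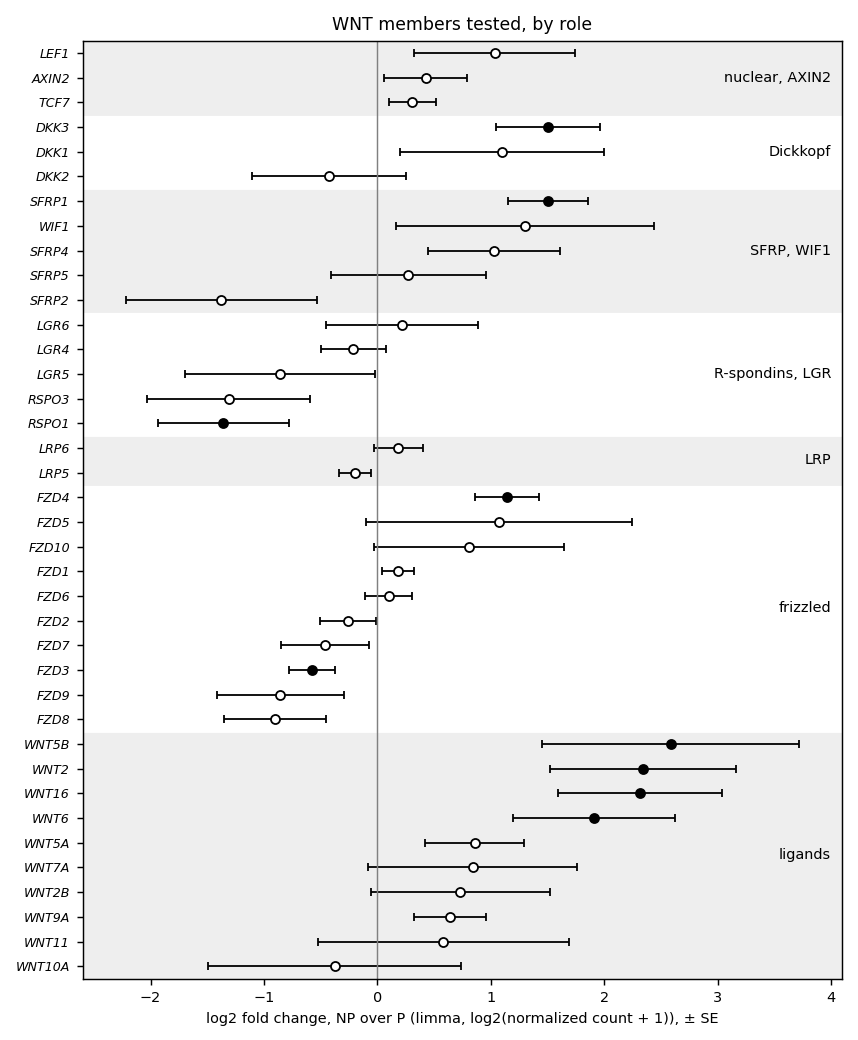
Log2 fold change (NP over P, log2(normalised count + 1) scale, ± SE) of the 38 members tested, arranged by role; filled points have an unadjusted limma p under 0.05. The filled points lie above 0 for 4 ligands, FZD4, SFRP1 and DKK3 and below 0 for RSPO1 and FZD3.

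The median log2 fold change over the 38 members was 0.37, against 0.0018 over all genes tested, and 25 members (65.8%) were higher in NP against 50.2% of all genes. This median rested on the cows that stood apart, since it was 0.01 without P617 and P1541. The medians by role lay on both sides of 0. They were 0.85 for the 10 ligands (0.53 without P617 and P1541), 1.03 for the 5 SFRP and WIF1 genes (0.17 without these cows) and 1.10 for the 3 Dickkopf genes, where the median is the value of DKK1, and -0.86 for the 5 R-spondin and LGR genes and -0.08 for the 10 frizzled receptors. Members were also more spread, with a median absolute log2 fold change of 0.85 against 0.20 over all genes.

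Among the ligands, 4 of 10 had an unadjusted p under 0.05, all with higher values in NP. WNT2 (ENSBTAG00000008097), a ligand known from uterine stroma, had 415, 590, 874, 1134 and 1167 normalised counts in the 5 NP cows. In the P cows it ranged from 11.3 in P617 over a median of 256 to 514 in P904. Only P904 exceeded the lowest NP cow, NP638. The group means were 246 ± 181 (SD, n = 6) in P and 836 ± 331 (SD, n = 5) in NP. The log2 fold change was 2.34 (SE 0.819, limma adjusted p = 0.479), and it was 1.24 (SE 0.332, adjusted p = 0.207) without P617 and P1541, so both the difference and its error were smaller without them.

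WNT16 (ENSBTAG00000002940), another secreted ligand, had 240, 307, 332, 468 and 480 normalised counts in the NP cows. The P cows lay between 7.91 in P617 and 223 in P904, with a median of 105. The groups did not overlap, as for 3 of 38 members (WNT16, WNT5B and FZD4, with every NP cow above every P cow), or 7.89%, against 1.09% of all genes in either direction and 0.855% with NP above P. The means were 108 ± 82.3 in P (SD, n = 6) and 366 ± 105 in NP (SD, n = 5), a log2 fold change of 2.31 (SE 0.721, limma adjusted p = 0.406). Without P617 and P1541 it was 1.29 (SE 0.286, limma adjusted p = 0.149). With the epithelial marker mean as covariate, WNT16 and WNT2 passed the threshold in limma (adjusted p = 0.0292 and 0.0331). With the smooth muscle marker mean instead, the log2 fold change was 1.09 (SE 0.492, adjusted p = 0.816) for WNT16 and 0.93 (SE 0.542, adjusted p = 0.902) for WNT2, which no longer had an unadjusted p under 0.05.

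WNT5B (ENSBTAG00000001341), which mostly signals without β-catenin, was found at 176, 179, 206, 216 and 254 normalised counts in the NP cows, a narrow range. The P cows were widely spread, from no read in P617, where a count of 0 allows up to 3 reads, over a median of 68.8 to 174 in P904. The gap between the groups was thus 176 in NP2541 against 174 in P904, less than the spread within either group. The means were 77.9 ± 69.8 (SD, n = 6) in P and 206 ± 31.8 (SD, n = 5) in NP. The log2 fold change was 2.58 (SE 1.13, limma adjusted p = 0.608), and 1.63 (SE 0.631, adjusted p = 0.372) without P617 and P1541. In edgeR it was 1.41, and WNT5B did not reach an unadjusted p of 0.05 in edgeR or DESeq2. With a pseudocount of 0.5 or 5 in place of 1, the limma value was 2.76 or 2.12. With 0.5 it also missed an unadjusted p of 0.05.

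WNT6 (ENSBTAG00000013990), a ligand expressed by many epithelia, had 31.5, 64.3, 93.8, 101.1 and 103 normalised counts in the NP cows. In 5 of the 6 P cows it lay between 4.52 and 28.9, below every NP cow, and in P904 it was 127, above every NP cow. The P median was 17.8, and the means were 33.9 ± 46.7 (SD, n = 6) in P and 78.8 ± 30.7 (SD, n = 5) in NP. The log2 fold change was 1.91 (SE 0.713, limma adjusted p = 0.514), and 2.45 (adjusted p = 0.083) without P904. Leaving out this highest P cow necessarily widens the difference. WNT6 did not reach an unadjusted p of 0.05 in edgeR (1.22) or DESeq2 (1.21), without P617 and P1541 (1.35, SE 0.697) or with the smooth muscle covariate (0.93, SE 0.642).

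The other 6 ligands tested did not reach an unadjusted p of 0.05. WNT5A, a ligand of non-canonical signalling, had 274 ± 131 normalised counts in P (SD, n = 6) and 484 ± 237.8 in NP (SD, n = 5), with limma adjusted p = 0.688. Its log2 fold change was 0.86, and 1.02 without P904, 0.32 without P617 and P1541 and 0.05 with the smooth muscle covariate. WNT9A had 16.5 ± 5.88 in P (SD, n = 6) and 25.2 ± 4.43 in NP (SD, n = 5), with limma adjusted p = 0.678. WNT2B and WNT7A had log2 fold changes of 0.73 and 0.84, which were -0.0037 and 0.14 without P617, the lowest cow for both. WNT10A had a log2 fold change of -0.38. The direction of WNT11 depended on the scale, with a log2 fold change of 0.58 in limma but -0.69 in edgeR and -0.71 in DESeq2, and means of 56.5 in P and 34.4 in NP. The value of WNT10A turned on 1 cow: with 1 read, P617 was far under the other 5 P cows, which lay between 143 and 321 normalised counts, above all NP cows (36.6 to 114). Without P617 its log2 fold change was -1.47 (SE 0.343, limma adjusted p = 0.209), a value singled out after it had been seen.

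**Figure D2:**
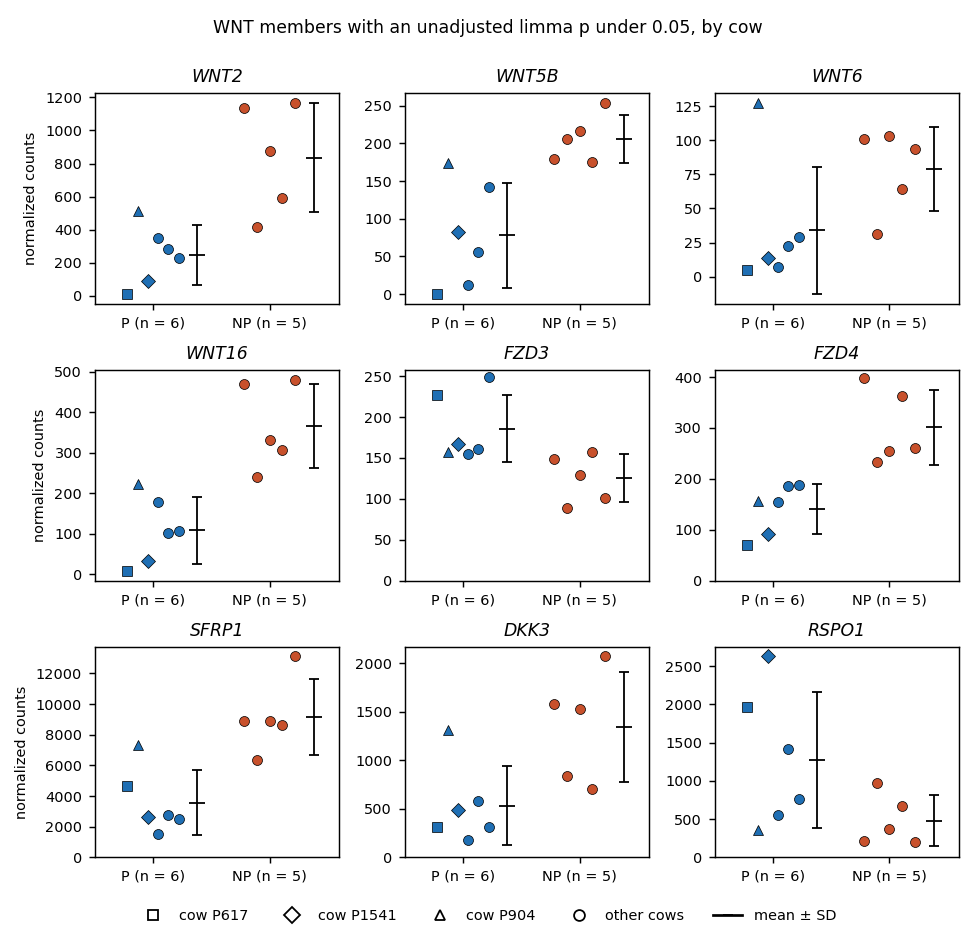
Normalised counts (linear axes) of the 9 members with an unadjusted limma p under 0.05 in each P and NP cow, with the mean ± SD per group; P617 is drawn as a square, P1541 as a diamond and P904 as a triangle. The groups do not overlap for FZD4, WNT16 and WNT5B, and P904 is the highest P cow in DKK3, SFRP1, WNT2, WNT5B, WNT6 and WNT16.

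Of the 10 frizzled receptors, 1 had an unadjusted p under 0.05 with higher values in NP and 1 with higher values in P. FZD4 (ENSBTAG00000040128), a frizzled receptor best known from vascular development as receptor of norrin, had 233, 254, 260, 362 and 397 normalised counts in the NP cows. The P cows ranged from 70.0 in P617 to 188 in P2396, with a median of 156. The groups did not overlap. The means were 141 ± 49.1 (SD, n = 6) in P and 301 ± 73.4 (SD, n = 5) in NP, a log2 fold change of 1.14 (SE 0.280, limma adjusted p = 0.264). DESeq2 on the recovered reads called it (adjusted p = 0.0266), as did limma with the epithelial covariate (adjusted p = 0.0684), whereas edgeR did not (adjusted p = 0.323). The endothelial marker genes were higher in NP in 11 of 11 cases, 10 of them with an unadjusted p under 0.05. With the endothelial marker mean as covariate the log2 fold change of FZD4 was 0.86 (SE 0.406), and it did not reach an unadjusted p of 0.05.

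FZD3 (ENSBTAG00000035084), a receptor of planar polarity signalling, was found at 89.3, 100.9, 129, 149 and 157 normalised counts in the NP cows. The P cows lay between 154 and 249, with a median of 164. The groups overlapped in 1 pair of cows, since NP2541 (157) lay above P1631 (154). The means were 186 ± 41.4 (SD, n = 6) in P and 125 ± 29.4 (SD, n = 5) in NP, and the log2 fold change was -0.58 (SE 0.205, limma adjusted p = 0.487). Without P617 and P1541 it was -0.53 (SE 0.228), and with the endothelial covariate -0.27 (SE 0.282), where it did not reach an unadjusted p of 0.05.

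The other 8 frizzled receptors had log2 fold changes between -0.90 for FZD8 (limma adjusted p = 0.678) and 1.07 for FZD5 (limma adjusted p = 0.86). FZD5 and FZD10 were nearly absent from P617, with 5.65 and 3.39 normalised counts, against 71.6 to 738 and 67.8 to 186 in the other P cows. Without that cow their log2 fold changes were 0.07 and 0.0043. FZD1 had 1759 ± 227 in P (SD, n = 6) and 2004 ± 368 in NP (SD, n = 5). The co-receptors LRP5 and LRP6, needed for β-catenin signalling, differed by less than the spread among cows. LRP5 (ENSBTAG00000005903) had 841, 1093, 1113, 1125 and 1145 normalised counts in the NP cows and 947 to 1613 in the P cows (median 1185), with a log2 fold change of -0.20 (SE 0.144, limma adjusted p = 0.795). LRP6 had 623 ± 108 in P (SD, n = 6) and 731 ± 240 in NP (SD, n = 5), with limma adjusted p = 0.865.

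The R-spondins tested had lower values in NP, 1 of them with an unadjusted p under 0.05. RSPO1 (ENSBTAG00000003837), a secreted enhancer of WNT signalling, had 195, 207, 365, 667 and 970 normalised counts in the NP cows. In the P cows it ranged from 351 in P904 over a median of 1089 to 2627 in P1541, so the groups overlapped. The means were 1278 ± 889 (SD, n = 6) in P and 481 ± 333 (SD, n = 5) in NP, and the log2 fold change was -1.36 (SE 0.578, limma adjusted p = 0.594). RSPO3, a relative with the same action, had 895 ± 735 in P (SD, n = 6) and 395 ± 430 in NP (SD, n = 5), a log2 fold change of -1.31 (limma adjusted p = 0.73).

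The R-spondin values moved with smooth muscle markers. RSPO3 was highest in P617 (1821), P1541 (1814) and NP638 (1128), the same 3 cows that were highest for the summed smooth muscle markers. These 3 cows were the highest for 3 members (RSPO3, SFRP2 and DKK2, 7.89%) and for 7.33% of all genes, so this share was near the background. RSPO3 also put the 6 P cows in the same order as that sum did. This order over the P cows was shared by 3 of 38 members (RSPO3, DKK2 and LRP6), or 7.89%, and by 1.3% of all genes tested. With the smooth muscle marker mean as covariate, the log2 fold change was -0.24 for RSPO1 (SE 0.246) and 0.13 for RSPO3 (SE 0.224). Without P617 and P1541 it was -0.78 for RSPO1 (SE 0.530) and -0.57 for RSPO3 (SE 0.660). Of the smooth muscle markers, 7 of 7 were higher in P, 2 of them with an unadjusted p under 0.05, so the difference in RSPO1 between P and NP cannot be told apart from that in smooth muscle markers.

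**Figure D3:**
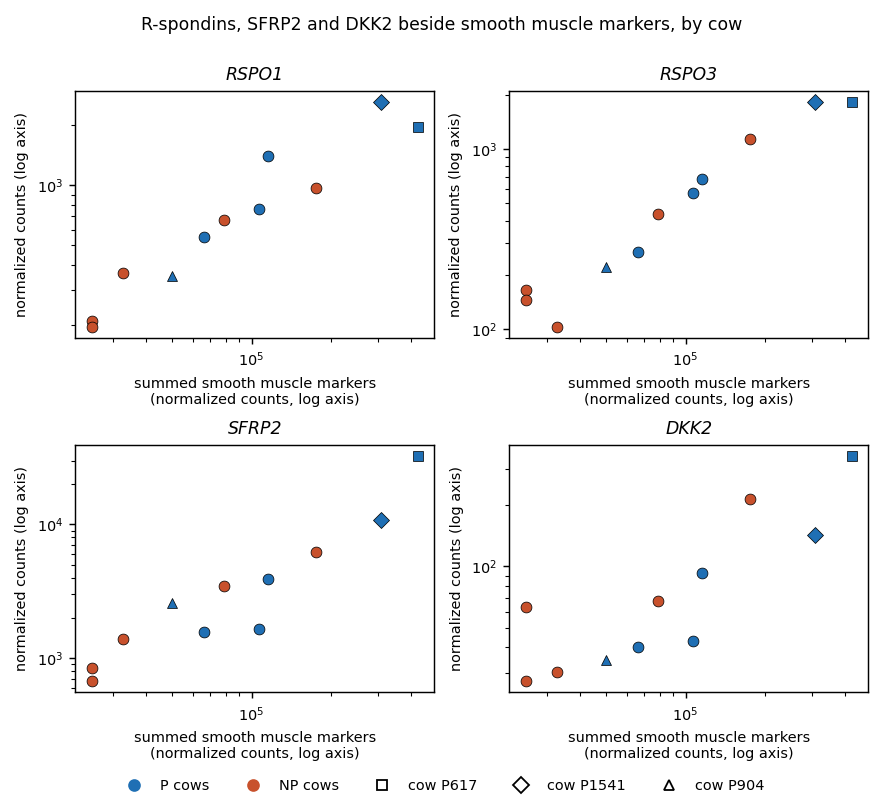
Normalised counts of RSPO1, RSPO3, SFRP2 and DKK2 (log axes) in each P and NP cow against the summed normalised count of 7 smooth muscle markers (log axes). P617, P1541 and NP638 are the 3 cows with the highest marker sum and also the 3 highest for RSPO3, SFRP2 and DKK2, as for 7.33% of all genes tested.

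With all cows and no covariate, the LGR receptors did not pass the test in either direction. LGR4 had 1160 ± 395 normalised counts in P (SD, n = 6) and 965 ± 252 in NP (SD, n = 5). LGR5, the receptor known as a marker of epithelial stem cells, varied from 83.6 to 1256 among P cows and from 29.0 to 719 among NP cows, and LGR6 from 6.78 to 43.3 and from 3.03 to 43.9. The spread within each group was thus larger than the difference between the groups. Their limma adjusted p-values were 0.885 for LGR4, 0.837 for LGR5 and 0.949 for LGR6. The log2 fold change of LGR4 was -0.21, and -0.50 (SE 0.206, limma adjusted p = 0.4) without P617 and P1541. For LGR5 it was -0.86, and -1.95 (SE 0.785, limma adjusted p = 0.79) with the smooth muscle covariate. Both of these runs gave an unadjusted p under 0.05, whereas the values were 0.25 and 0.10 with the stromal covariate.

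The member with the smallest p-value was SFRP1 (ENSBTAG00000027625). This secreted decoy of WNT ligands had 6326, 8652, 8869, 8870 and 13150 normalised counts in the NP cows. The P cows ranged from 1501 over a median of 2710 to 7328 in P904, and P904 was the only P cow above the lowest NP cow, NP638. The means were 3575 ± 2109 (SD, n = 6) in P and 9174 ± 2469 (SD, n = 5) in NP. The log2 fold change was 1.51 (SE 0.353, limma adjusted p = 0.264), and it remained between 1.30 and 1.75 whichever cow was left out. DESeq2 called SFRP1 (adjusted p = 0.0375), as did limma with the epithelial covariate (adjusted p = 0.0888), while edgeR did not (adjusted p = 0.363). Limma also called SFRP1 without P904 (adjusted p = 0.0355), but leaving out the highest P cow necessarily widens the difference. Unlike RSPO1, SFRP1 had a similar value with the smooth muscle covariate, 1.38 (SE 0.413, limma adjusted p = 0.624). Without P617 and P1541 it was 1.59 (SE 0.388, limma adjusted p = 0.176). With the endothelial covariate SFRP1 was at 1.08 (SE 0.504) and did not reach an unadjusted p of 0.05.

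Its relatives did not pass the test. SFRP2, also a ligand-binding protein, ranged from 1566 over a median of 3238 to 32532 normalised counts in the P cows and from 674 to 6205 in the NP cows. Its log2 fold change was opposite in sign, -1.38 (SE 0.840, limma adjusted p = 0.76), and 0.23 (SE 0.381) with the smooth muscle covariate. Its 3 highest cows were P617, P1541 and NP638, as for RSPO3. SFRP4 had 351 ± 255 in P (SD, n = 6) and 590 ± 253 in NP (SD, n = 5), with limma adjusted p = 0.738, and SFRP5 had a log2 fold change of 0.27 (limma adjusted p = 0.937). WIF1, which sequesters WNT ligands, was at 2.26 in P617 and 1083 in P2396, with 179 to 281 in the other P cows and 296 to 507 in the NP cows (limma adjusted p = 0.821). Its log2 fold change was 1.30, and lay between 0.20 and 1.87 whichever cow was left out. Without P617 and P1541 it was 0.10.

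DKK3 (ENSBTAG00000004275), a divergent Dickkopf protein whose action on WNT signalling is debated, had 704, 834, 1535, 1579 and 2073 normalised counts in the NP cows. In 5 of the 6 P cows it was below every NP cow, from 183 to 586, and in P904 it was 1317. The P median was 402, and the means were 534 ± 409 (SD, n = 6) in P and 1345 ± 569 (SD, n = 5) in NP. The log2 fold change was 1.51 (SE 0.458, limma adjusted p = 0.388). It was 1.08 (SE 0.490, limma adjusted p = 0.817) with the smooth muscle covariate and 0.65 (SE 0.592) with the endothelial covariate. Without P904 it was 1.83 (limma adjusted p = 0.0658), but leaving out the highest P cow necessarily widens the difference. DESeq2 with all cows gave an adjusted p of 0.2. DKK1, which blocks LRP5 and LRP6, had 139 to 380 in the NP cows and 17.1 to 925 in the P cows, with means of 277 and 270 and a log2 fold change of 1.10 (limma adjusted p = 0.81), which was 0.05 in edgeR, and 2.19 (SE 0.672, adjusted p = 0.261) without P617 and P1541. DKK2 had a log2 fold change of -0.43 (limma adjusted p = 0.897), with its highest values in P617 (349), NP638 (215) and P1541 (142).

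None of the 3 nuclear members reached an unadjusted p of 0.05 in limma with no covariate. TCF7 (ENSBTAG00000001002), a DNA-binding partner of β-catenin, had 280, 335, 386, 431 and 636 normalised counts in the NP cows and 237.6 to 419 in the P cows (median 329), so the groups overlapped, with a log2 fold change of 0.31 (SE 0.209, limma adjusted p = 0.774). AXIN2, a feedback inhibitor commonly read as a target of β-catenin, had 802 ± 343 in P (SD, n = 6) and 979 ± 242 in NP (SD, n = 5). LEF1, the other DNA-binding partner, had 597 ± 325 in P (SD, n = 6) and 896 ± 264 in NP (SD, n = 5). Their log2 fold changes were 0.43 (limma adjusted p = 0.819) and 1.04 (limma adjusted p = 0.778), and without P617 and P1541 they were -0.07 and 0.17. With the stromal covariate they were 1.00 (limma adjusted p = 0.0398) and 2.05 (adjusted p = 0.0448), in a fit that called 30.6% of all genes, and with the epithelial covariate LEF1 was at 0.74 (SE 0.265), with an unadjusted p under 0.05. In P617 AXIN2 was at 238.4 and LEF1 at 37.3, the lowest values of the 11 cows.

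**Figure D4:**
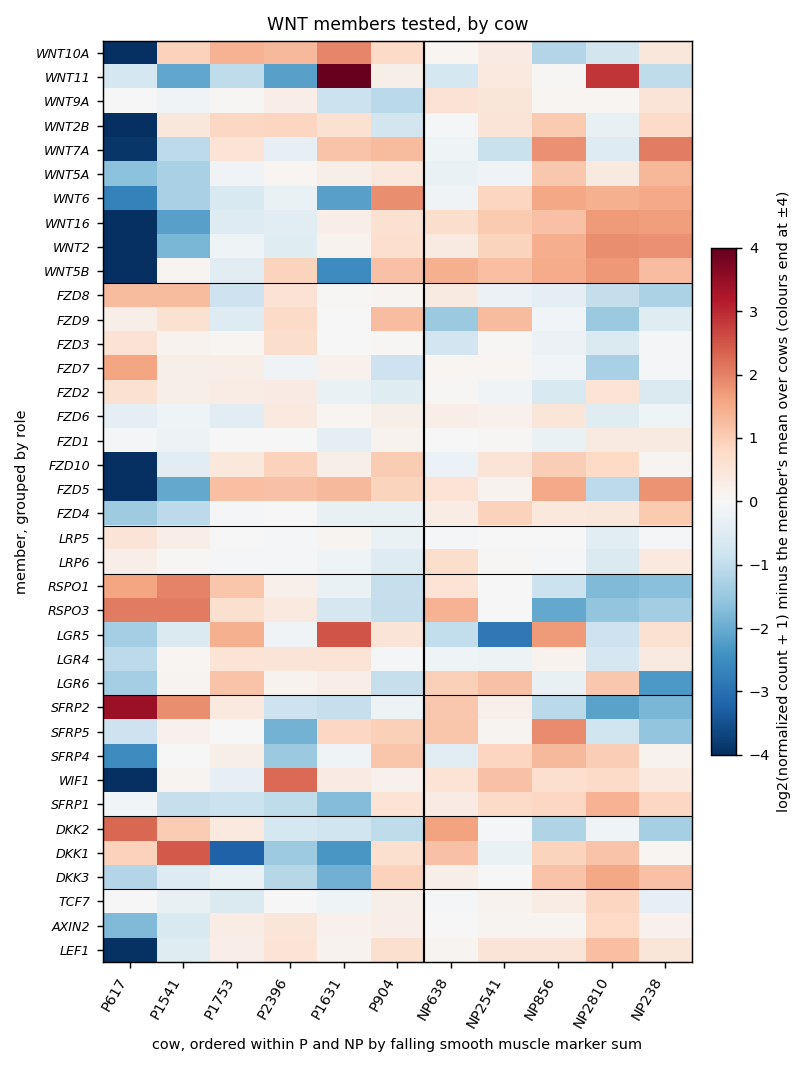
Log2 deviation of each cow from the mean of all 11 cows on the log2(normalised count + 1) scale for the 38 members tested, arranged by role, with cows ordered within P and NP by the summed smooth muscle markers. P617 holds the lowest value of the 11 cows in 16 members, and P904 the highest value of the P cows in 15.

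Single cows shaped many of these values. P617 had the lowest value of the 11 cows in 16 of 38 members, or 42.1%, against 27.8% of all genes tested. P904 had the highest value of the P cows in 15 of 38 members, or 39.5%, against 13.4% of all genes. Among the 7 members that were higher in NP, P904 was the highest P cow in 6, all but FZD4, and the same was true of 59.1% of the 828 genes of that kind. In these 6 members P904 thus lay nearest to the NP cows of all P cows. Among the runs that left out each cow, the one without P904 was singled out after this had been seen, here and for single genes. Leaving out the highest P cow necessarily widens the difference in such members, so calls made without P904 add no support of their own. Without P904, limma called 3 members (7.89%), DKK3, WNT6 and SFRP1, against 1.13% of all genes, and the groups did not overlap for 7 members (18.4%) against 3.23%. P904 also had an endothelial marker sum of 14344, within the NP range of 8921 to 15623, against 4664 to 8637 in the other P cows. Its smooth muscle marker sum, 50274, was the lowest of the P cows. A link between these sums and the WNT values of P904 was not tested.

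The cell-type markers moved with the groups, and the share of WNT members depended on which of them was taken into the fit. Besides the endothelial ones, 9 of 9 stromal fibroblast markers (2 with an unadjusted p under 0.05) and 7 of 8 immune cell markers (4 with an unadjusted p under 0.05) were higher in NP. Of the epithelial markers, 11 of 13 were higher in NP on the log2 scale, 1 with an unadjusted p under 0.05. The median of their summed count was nevertheless 21467 in P and 19439 in NP. With the smooth muscle marker mean as covariate, 9 of 38 members (23.7%) had an unadjusted p under 0.05, against 6.1% of all genes. Of these, 5 were among the 9 named above. With the epithelial marker mean, 12 members had an unadjusted p under 0.05 (31.6%) against 12.4%. In that fit 4 members (10.5%), FZD4, WNT16, WNT2 and SFRP1, had an adjusted p under 0.1 in limma against 0.889%. With the endothelial marker mean, a covariate chosen after the data had been seen, 2 had an unadjusted p under 0.05 (5.26%), against 3.17%. These were LRP6 and WNT9A, and neither was among the 9 members named above. With the stromal marker mean, likewise chosen afterwards, 21 of 38 had an unadjusted p under 0.05, or 55.3%, against 36.6%. In that fit 18, or 47.4%, had an adjusted p under 0.1 in limma against 30.6%. With the endothelial marker mean, log2 fold changes were 0.44 for WNT2, 0.68 for WNT16, 0.21 for WNT6, 0.65 for DKK3 and -0.02 for WNT5B. They were 1.08 (SE 0.504) for SFRP1, 0.86 for FZD4, -0.27 for FZD3 and -0.62 for RSPO1. Since the endothelial markers were themselves higher in NP, the group difference and the difference in these markers cannot be told apart for any of these 9 members.

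**Figure D5:**
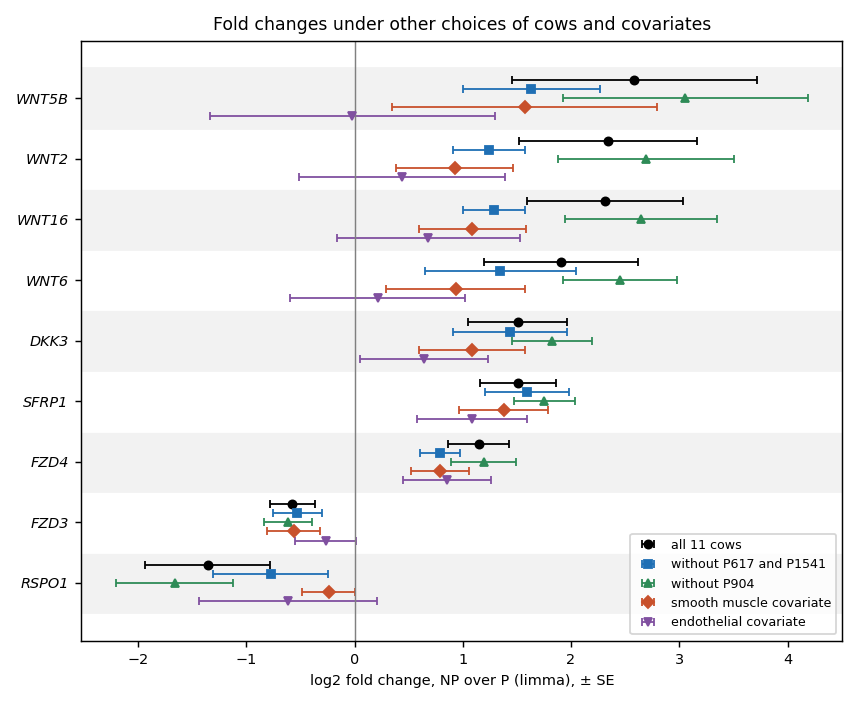
Log2 fold change (NP over P, log2(normalised count + 1) scale, ± SE) of the 9 members with an unadjusted limma p under 0.05, for all cows, without P617 and P1541, without P904, and with the smooth muscle or endothelial marker mean as covariate. SFRP1 lies between 1.08 and 1.75 in all of these, whereas RSPO1 is -0.24 with the smooth muscle and WNT5B -0.02 with the endothelial covariate.

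Of 54 other genes of the pathway, 50 were found and 49 rows were tested. An unadjusted p under 0.05 was found for 4 of 49, against 7.84% of all genes, a share near the background. These 4, all higher in NP, were NKD2, TNFRSF19, APCDD1 and NDP. The median log2 fold change over the 49 was 0.04, with 32 of them (65.3%) higher in NP, against 0.0018 and 50.2% over all genes. The number with an unadjusted p under 0.05 was 7 in DESeq2, against 9.75% of all genes, and 13 without P617 and P1541, against 11.1%. NKD2, an intracellular antagonist of the pathway, had 134, 143, 149, 247 and 255 normalised counts in the NP cows and 99.7 to 128 in the P cows (median 109), without overlap. Its log2 fold change was 0.66 (SE 0.204, limma adjusted p = 0.4, DESeq2 adjusted p = 0.0852). TNFRSF19, a receptor known as a β-catenin target, had 133, 146, 161, 186 and 206 in the NP cows and 29.4 to 126 in the P cows (median 70.6), again without overlap. Its log2 fold change was 1.43 (SE 0.381, limma adjusted p = 0.323, DESeq2 adjusted p = 0.0871).

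APCDD1, a membrane protein that dampens WNT signalling, had 2042, 2426, 3544, 4403 and 4433 normalised counts in the NP cows and 271 to 3379 in the P cows (median 894). The highest P cow was again P904. Its log2 fold change was 1.77 (SE 0.560, limma adjusted p = 0.416). NDP encodes norrin, a ligand of FZD4 outside the WNT family, and had 306, 567, 845, 1016 and 1049 in the NP cows and 108 to 786 in the P cows (median 180). The log2 fold change of NDP was 1.65 (SE 0.476, limma adjusted p = 0.364). FZD4 was also higher in NP, but neither passed the adjusted threshold in limma with all cows and no covariate. A link between them was not tested. Without P904, TNFRSF19, APCDD1 and NDP passed the adjusted threshold in limma (adjusted p = 0.0826, 0.0858 and 0.0401), against 1.13% of all genes. P904 was the highest P cow for each of them and was singled out after the data had been seen. With the endothelial covariate the log2 fold changes were 0.59 (SE 0.454) for TNFRSF19, 0.08 (SE 0.459) for APCDD1 and 0.78 (SE 0.621) for NDP, none with an unadjusted p under 0.05.

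The 9 members under the minimum were WNT1, WNT3, WNT3A, WNT8A, WNT8B, WNT9B, RSPO2, RSPO4 and DKK4. WNT1, WNT8A and RSPO2 had no read in any cow, where a count of 0 allows up to 3 reads per library. The largest value among the 9 was 9 reads, for WNT3 in an NP cow. WNT3 was read in 3 of 6 P cows, with at most 2 reads, and in 5 of 5 NP cows, with 1 to 9 reads. Any difference at this depth rests on few reads. WNT4, WNT7B and WNT10B were not found under a symbol of their own and were not analysed here.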

How the data were processed

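Members and gene lists were chosen with earlier results of these data known. The authors filtered paired-end reads from polyA-selected libraries, mapped them with Bowtie2 2.1.0 to the masked UMD3.1 assembly, counted them per gene with HTSeq 0.5.4p2 and divided the counts by DESeq2 1.12.1 size factors, and the processing notes of the submitters also name CASAVA 1.8.2. The annotation and the use of strand are not given in the sources used here, so the counts of overlapping genes are uncertain. The deposited values are a signal, 1 column per cow. In each of the 11 columns 100% of the values were whole multiples (within 0.01) of what 1 read was worth, and the reads were recovered from them. Columns without a sample numbered 0.

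Because the values are normalised, NP and P were compared in R 4.3.3 with limma 3.58.1 and its trended variance prior on log2(value + 1), for the 15081 genes that averaged 5 or more, with no covariate and the Benjamini-Hochberg adjustment at 0.1. Groups were taken from the sample labels, which keep P617 as P. Each cow was 1 replicate. The smallest signal is 1 read, and intervals of low counts cover counting error only. Alternatives were edgeR 4.0.16 and DESeq2 1.42.0 on the recovered reads, other scalings, filters and pseudocounts, leaving out cows, and marker means as covariates. These were means of log2(value + 1) over the smooth muscle or epithelial markers, and over endothelial or stromal ones chosen after the data had been seen. Members with an unadjusted p under 0.05, without overlap between the groups or with an adjusted p under 0.1 by any of these tools were described by cow, as was the member with the smallest p of each role without one. The scripts were tested on simulated data. Genome coordinates are not given.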

Additional observations from a re-analysis of the deposited data

Results flagged for a closer look

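In 14 of 76 sets of values (38 members in each of the 2 groups), or 18.4%, 1 cow lay far from the others of its group by Dixon's criterion, which chance would give for about 1 in 20 sets of normal values and which was met in 9.4% of the sets over all genes tested. In the P group, P617 was far above the other P cows for SFRP2 (32532 normalised counts against 1566 to 10773), FZD7 (691 against 128 to 274) and DKK2 (349 against 34.5 to 142). P904 was far above them for DKK3 (1317 against 183 to 586) and WNT6 (127 against 4.52 to 28.9). Single P cows stood out for DKK1 (925 in P1541), WIF1 (1083 in P2396, against 2.26 to 281) and WNT11 (299 in P1631, against 2.63 to 18.2).

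In the NP group, NP2810 was far from the other NP cows in 4 members: it was high for AXIN2 (1408 against 817 to 916) and WNT11 (119 against 7.08 to 20.4) and low for LRP5 (841 against 1093 to 1145) and FZD7 (93.8 against 215 to 245). NP638 was high for DKK2 (215 against 27.3 to 67.4) and NP2541 for FZD9 (12.5 against 1.01 to 4.30). WNT11, a ligand of non-canonical signalling, was thus set by 1 cow in each group, and its log2 fold change of 0.58 lay between -0.06 and 1.47 whichever cow was left out.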

How the results depend on the processing

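The share of all genes tested is given in brackets after each count. The number of members with an adjusted p under 0.1 was 0 in limma (0%), 2 in DESeq2 (1.33%), 4 with the epithelial (0.889%) and 18 with the stromal covariate (30.6%). It was 0 to 3 whichever cow was left out, with 3 without P904 (1.13%). The number with an unadjusted p under 0.05 was 9 (7.84%), and 2 with the endothelial (3.17%) and 21 with the stromal covariate (36.6%). The groups did not overlap for 3 members (1.09%), and for 3 to 7 members when each cow was left out. There were 7 without P904 (3.23%), 5 without P2396 (1.52%) and 5 without NP638 (2.02%), so the share of all genes rose as well. For the other pathway genes, 4 had an unadjusted p under 0.05, against 7 in DESeq2 (9.75% of all genes), 13 without P617 and P1541 (11.1%), 2 with the endothelial (3.17%) and 25 with the stromal covariate (36.6%). The cause of these shifts was not tested. Of the 9 members, 7 kept an unadjusted p under 0.05 whichever cow was left out, while RSPO1 and WNT5B each lost it in 6 of 11 cases (RSPO1 without P617, P1541, P1753, NP238, NP856 or NP2810, and WNT5B without P1631 or any 1 NP cow), and 9 of 9 kept their sign. With the endothelial covariate the log2 fold change turned to -0.021 for WNT5B and to 0.12 for LRP5, and no other alternative run turned the sign of the 11 members described by cow. At this depth members with low read counts, such as FZD9 (1 to 16 reads per cow) and WNT9A (9 to 35), carry more counting error. No paired analysis was possible because the groups share no replicate numbers.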

Other observations

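The cows with the highest smooth muscle marker sums, P617, P1541 and NP638, were also the 3 lowest of all 11 cows for 4 members, FZD10, WNT5A, AXIN2 and LEF1 (10.5% of members, against 3.92% of all genes tested), and the 3 highest for DKK2, RSPO3 and SFRP2 (7.89%, against 7.33%). The latter share was near the background.

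NP2810 was the NP cow in which WNT2 (1167 normalised counts), WNT5B (254), WNT16 (480), SFRP1 (13150), DKK3 (2073), AXIN2 (1408), LEF1 (1340) and TCF7 (636) were highest. It was the highest of all 11 cows in 9 of 38 members, or 23.7%, against 10.5% of all genes tested. For FZD5 (143), FZD7 (93.8), LGR4 (641) and LRP6 (432) it was the lowest of the NP cows.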
